A study of Mus musculus with 24 samples.

Results

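The PROTAC AU-15330 brings the SWI/SNF ATPases SMARCA4 and SMARCA2 to a ubiquitin ligase, that of VHL, which marks them for degradation. Here the transcripts of that ligase and of the hypoxia-inducible factor (HIF) system it normally serves were followed, to ask whether any of them changed with the drug. The set was defined by gene names, with earlier results of these data known, and it comprised 10 of the 25229 genes in the count table, all of which passed the filter on low counts. They were the ligase genes Vhl, Cul2 and Rbx1, the HIF subunit genes Hif1a, Epas1 and Arnt, the prolyl hydroxylase genes Egln1, Egln2 and Egln3, and Hif1an.

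RNA was taken from ID8 P53 KO cells, a C57BL/6-derived mouse ovarian cancer line labelled as a knockout of the p53 gene (Trp53), a genotype that vehicle and drug groups share by their labels. Cells were exposed for 6 days to DMSO, to AU-15330 at 2.5 uM, to cisplatin at 750 nM, or to cisplatin and AU-15330 together (the combination), with 6 replicates in each of the 4 groups. Cisplatin is a platinum drug that crosslinks DNA. The labels do not say that replicates were separate cultures, so the tests measure the spread between these samples, which may be technical. All groups are 1 cultured line, and RNA from bulk cultures cannot tell fewer expressing cells from less RNA per cell.

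The VHL protein is the substrate receptor of a cullin-RING ligase, in which elongins B and C link it to the scaffold CUL2, and RBX1 holds the ubiquitin-conjugating enzyme. In the presence of oxygen, EGLN prolyl hydroxylases modify the HIF alpha subunits encoded by Hif1a and Epas1, VHL binds the modified form, and the subunits are destroyed. When oxygen is scarce they persist, pair with ARNT and switch on genes of glycolysis, angiogenesis and oxygen sensing, among them Egln1 and Egln3 themselves. HIF1AN is an asparaginyl hydroxylase that blocks binding of HIF to the coactivators CBP and p300. Transcripts were measured here, not proteins, hydroxylation or ligase activity.

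The largest differences lay in the prolyl hydroxylases. Egln3 and Egln1 fell with either drug and stayed low in the combination, while Egln2 was not called against DMSO with either drug alone. The promoters of these genes are printed because the genes form a family whose members differed in response. They are RefSeq windows on GRCm38.p6 (mm10), reading 5′ to 3′ on the gene's strand from 250 bases before to 50 after the start site. Capitals mark the core of the hypoxia response element, ACGTG or GCGTG, on either strand (CACGT or CACGC on the other). The Egln3 window is chr12:54203825-54204124 (minus strand), the Egln1 window chr8:124949205-124949504 (minus strand) and the first Egln2 window chr7:27166753-27167052 (minus strand).
Egln3: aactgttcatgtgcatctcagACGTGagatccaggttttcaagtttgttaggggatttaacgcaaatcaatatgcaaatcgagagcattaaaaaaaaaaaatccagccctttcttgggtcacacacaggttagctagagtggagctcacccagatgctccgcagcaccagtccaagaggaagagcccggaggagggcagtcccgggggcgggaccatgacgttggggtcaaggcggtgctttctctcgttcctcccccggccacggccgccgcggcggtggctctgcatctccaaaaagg
Egln1: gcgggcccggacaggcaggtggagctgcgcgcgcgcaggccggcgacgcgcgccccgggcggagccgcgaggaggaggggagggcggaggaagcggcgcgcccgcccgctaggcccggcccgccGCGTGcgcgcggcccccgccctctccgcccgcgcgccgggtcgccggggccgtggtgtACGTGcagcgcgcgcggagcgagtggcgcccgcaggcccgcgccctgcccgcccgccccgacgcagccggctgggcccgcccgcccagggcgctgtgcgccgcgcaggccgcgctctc
Egln2: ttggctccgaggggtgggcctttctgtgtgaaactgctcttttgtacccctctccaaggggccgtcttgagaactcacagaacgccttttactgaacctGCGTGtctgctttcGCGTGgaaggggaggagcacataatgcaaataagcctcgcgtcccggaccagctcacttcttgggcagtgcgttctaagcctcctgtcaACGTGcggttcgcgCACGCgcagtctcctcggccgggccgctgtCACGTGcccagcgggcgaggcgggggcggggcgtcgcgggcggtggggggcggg

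With the start site counted as 0, the Egln3 window held 1 match, at -229, and the Egln1 window held 2, at -126 and -68. The Egln2 window printed, the first of 2 in the table, held 6, counting CACGTG once on each strand, and the other (chr7:27165679-27165978, minus strand) held 1, at -116. These short letters were common, being present in 43.8% of 32851 promoter windows and in a window of 46.7% of 27025 genes. Of the 10 genes, 8 had an entry, all but Epas1 and Cul2, and 6 of the 8 held a match, all but Vhl and Hif1an. The AP-1 motif, TGAGTCA or TGACTCA, was in none of the windows of the 8, against 5.20% of all windows. At that rate a set this small would more often than not hold none, so this shows no lack of the motif.

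**Figure D1:**
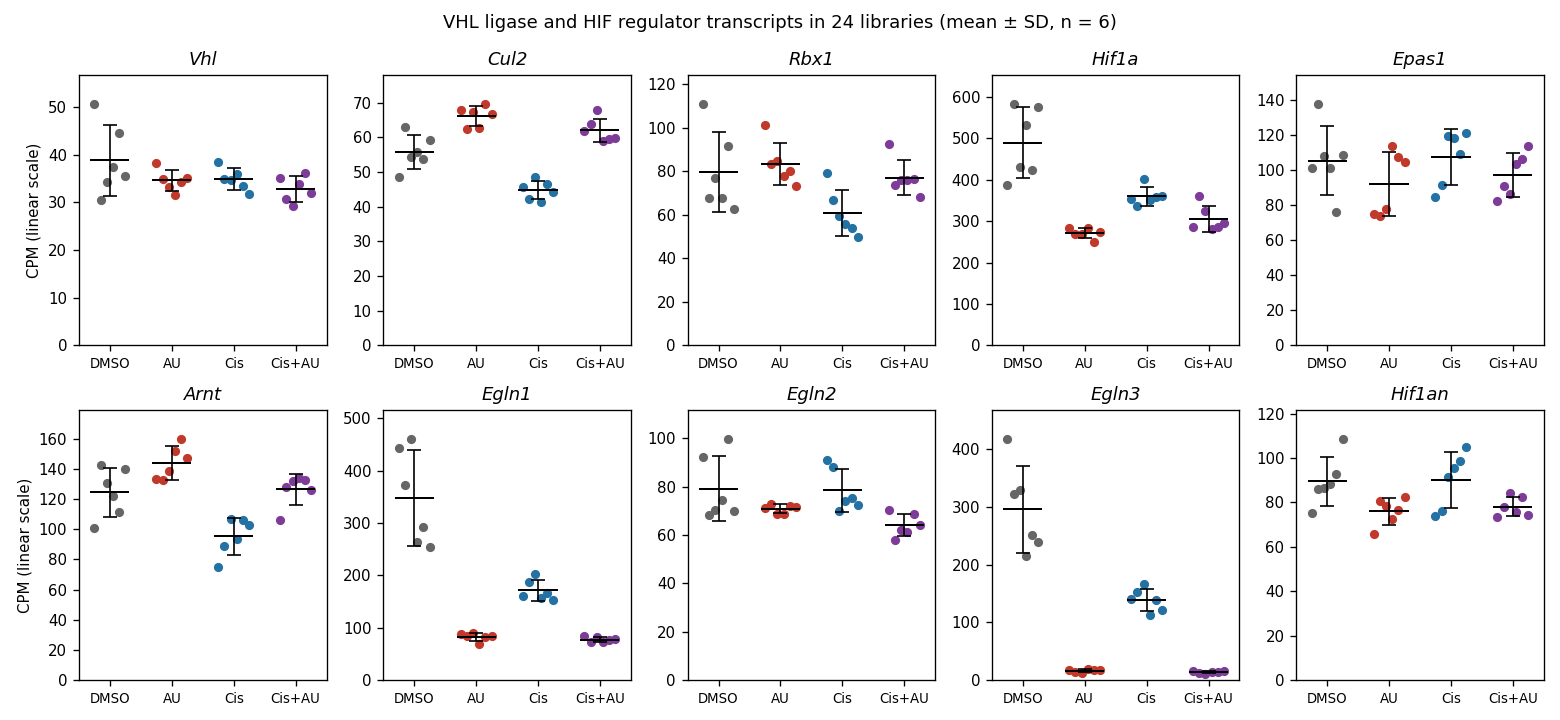
Normalized level (CPM, linear axis from 0) of each of the 10 transcripts in the 24 libraries, by treatment (AU, AU-15330; Cis, cisplatin). Points are libraries, and the horizontal line and error bar are the mean and SD of 6; Egln1 and Egln3 were lower in every drug-treated library than in any DMSO library, whereas the Vhl and Epas1 groups overlapped.

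Levels are given as CPM, read counts scaled to library size with edgeR's TMM factors. Changes are log2 fold changes with their standard error (SE) from edgeR's quasi-likelihood test, and a gene was called at an adjusted p under 0.05 over the 12941 genes tested. Against DMSO, AU-15330 changed 6 of the 10 genes, of which 2 were higher and 4 lower. The background was high, since 73.4% of all tested genes were called in this comparison, 36.2% higher and 37.2% lower. A share of 6 in 10 is therefore no excess over it. The groups of libraries did not overlap for 3 of the 10, Hif1a, Egln1 and Egln3, against 49.9% of all tested genes.

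Egln3 (chr12:54178981-54203860, minus strand, in GENCODE vM21 on mm10, as for the positions that follow) encodes the prolyl hydroxylase most strongly inducible by hypoxia in many cells. Its level in DMSO ran from 216 to 418 CPM with a median of 287, and in AU-15330 from 13.1 to 19.3 with a median of 17.2. No library of the treated group came near the lowest DMSO library. The log2 fold change was -4.18 (SE 0.15, 95% interval -4.49 to -3.86, adjusted p = 2.26e-18), which left 5.53% of the DMSO level. In only 3.72% of all tested genes was the log2 fold change lower.

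Egln1 (chr8:124908587-124949324, minus strand) encodes the main oxygen sensor among the prolyl hydroxylases in most tissues. In DMSO it ran from 255 to 461 CPM (median 332) and in AU-15330 from 69.0 to 89.4 (median 84.1), again with a wide gap between the groups. Its log2 fold change was -2.07 (SE 0.12, 95% interval -2.32 to -1.81, adjusted p = 4.94e-14), to 23.8% of the DMSO level. The intervals of Egln1 and Egln3 did not overlap, although the difference between the genes was not itself tested. Egln2 (chr7:27158658-27166802, minus strand), the family member not known to be induced by hypoxia, held 68.1 to 99.8 CPM (median 72.3) in DMSO and 68.6 to 72.9 (median 71.3) in AU-15330. The AU-15330 values lay inside the DMSO range, and the log2 difference was -0.16 (95% interval -0.34 to 0.02, adjusted p = 0.102).

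Cisplatin also lowered both transcripts, with smaller fold changes than AU-15330 (the difference between the drugs was not tested). Egln3 ran from 113 to 167 CPM (median 140) and Egln1 from 153 to 202 (median 163), and neither group overlapped with DMSO. The log2 fold change was -1.09 (SE 0.13, adjusted p = 2.01e-07) for Egln3 and -1.02 (SE 0.12, adjusted p = 9.11e-08) for Egln1, or 47.0% and 49.2% of the DMSO level. In cisplatin the fold changes of Egln1 and Egln3 thus differed by less than their SE. Egln2 held 69.9 to 90.9 CPM (median 74.5), and its log2 difference from DMSO was -0.01 (95% interval -0.19 to 0.17, adjusted p = 0.912).

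In the combination, Egln3 ran from 10.9 to 16.6 CPM (median 14.4), Egln1 from 72.4 to 83.7 (median 76.8) and Egln2 from 58.0 to 70.1 (median 63.1). Against cisplatin, all 3 fell, by a log2 fold change of -3.30 (SE 0.15, adjusted p = 2.11e-16) for Egln3, -1.14 (SE 0.12, adjusted p = 5.12e-09) for Egln1 and -0.29 (SE 0.09, adjusted p = 0.00452) for Egln2. The Egln2 groups overlapped by a small margin, with cisplatin libraries down to 69.9 CPM and combination libraries up to 70.1. Against AU-15330 alone none of the 3 was called, either in this fit or in one with the replicate number as a block. The log2 differences without the block were -0.21 for Egln3 (95% interval -0.51 to 0.08), -0.10 for Egln1 (-0.34 to 0.15) and -0.15 for Egln2 (-0.33 to 0.03). When only these groups were fitted, Egln2 was called (-0.14, adjusted p = 0.0281).

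The effect of AU-15330 was therefore compared with and without cisplatin as an interaction, the log2 change from cisplatin to the combination minus that from DMSO to AU-15330. It was 0.88 for Egln3 (SE 0.20, adjusted p = 0.00119) and 0.93 for Egln1 (SE 0.17, adjusted p = 0.000154), where a positive value means a smaller fall when cisplatin was present. For Egln2 it was -0.13 (95% interval -0.39 to 0.12, adjusted p = 0.429). Of the 10 genes, 4 were called for the interaction, all with positive values, against 33.7% of all tested genes, 17.9% with positive and 15.8% with negative values. The comparisons share groups of libraries (DMSO serves both single-drug comparisons), so they are not independent of each other.

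**Figure D2:**
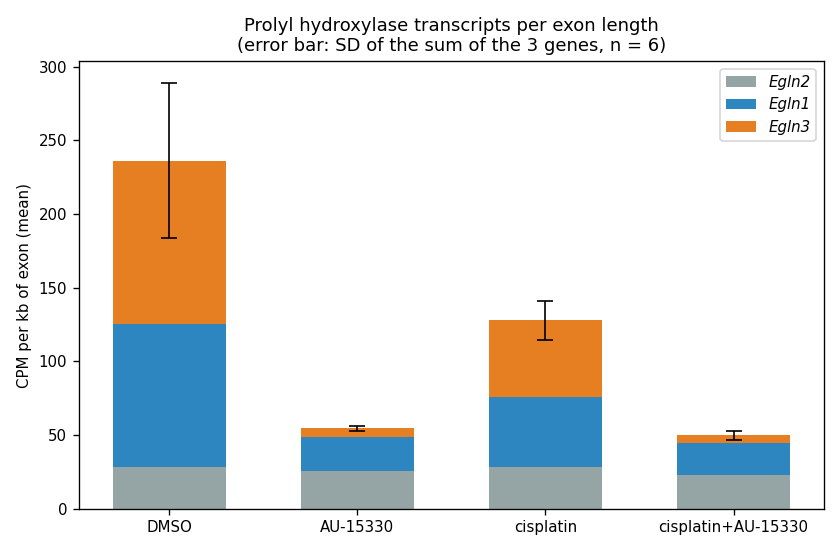
Mean level per kilobase of exon (CPM per kb, linear axis from 0) of Egln1, Egln2 and Egln3, stacked for each treatment, with the SD of the summed level over 6 libraries as the error bar. The stack shrank from 236 in DMSO to 54.5 in AU-15330, 128 in cisplatin and 49.7 in the combination, and the Egln3 layer nearly disappeared in both AU-15330 groups.

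To compare levels between genes, CPM was divided by the length of the gene's merged exons. This length covers every annotated exon (4551 bases for Rbx1), whichever transcripts the cells express. A gene's place in the order therefore depends in part on its annotation. In DMSO, Egln3 at 111 ± 28.3 CPM per kb (SD, n = 6), Egln1 at 96.7 ± 25.3 and Hif1a at 83.0 ± 14.5 were the most abundant per length and lay within their spread of each other. Egln2 came next at 28.3 ± 4.81, and the other 6 lay between 12.97 (Vhl) and 18.9 (Epas1), with each neighbour in that order within the spread of the next. In AU-15330 the order was rearranged. Hif1a led at 46.0 ± 2.11, Egln2 at 25.3 ± 0.64 and Egln1 at 23.05 ± 2.06 overlapped, and Egln3 was the lowest of the 10 at 6.16 ± 0.88.

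Summed per length, the prolyl hydroxylase transcripts came to 236 ± 52.9 CPM per kb in DMSO, 54.5 ± 1.89 in AU-15330, 128 ± 13.1 in cisplatin and 49.7 ± 2.99 in the combination (SD, n = 6 each). The makeup of this sum also moved. Egln3 made up 46.9% ± 2.47 in DMSO, 40.8% ± 1.89 in cisplatin, 11.3% ± 1.84 in AU-15330 and 10.6% ± 1.23 in the combination. Egln2 went the other way, from 12.4% ± 3.09 in DMSO and 22.01% ± 2.57 in cisplatin to 46.4% ± 1.358 and 46.0% ± 1.10 in the AU-15330 groups. Egln1 stayed between 37.2% and 43.4% on average in each group. The larger Egln2 share was a share of a smaller sum, since its own level was not higher in any drug group.

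**Figure D3:**
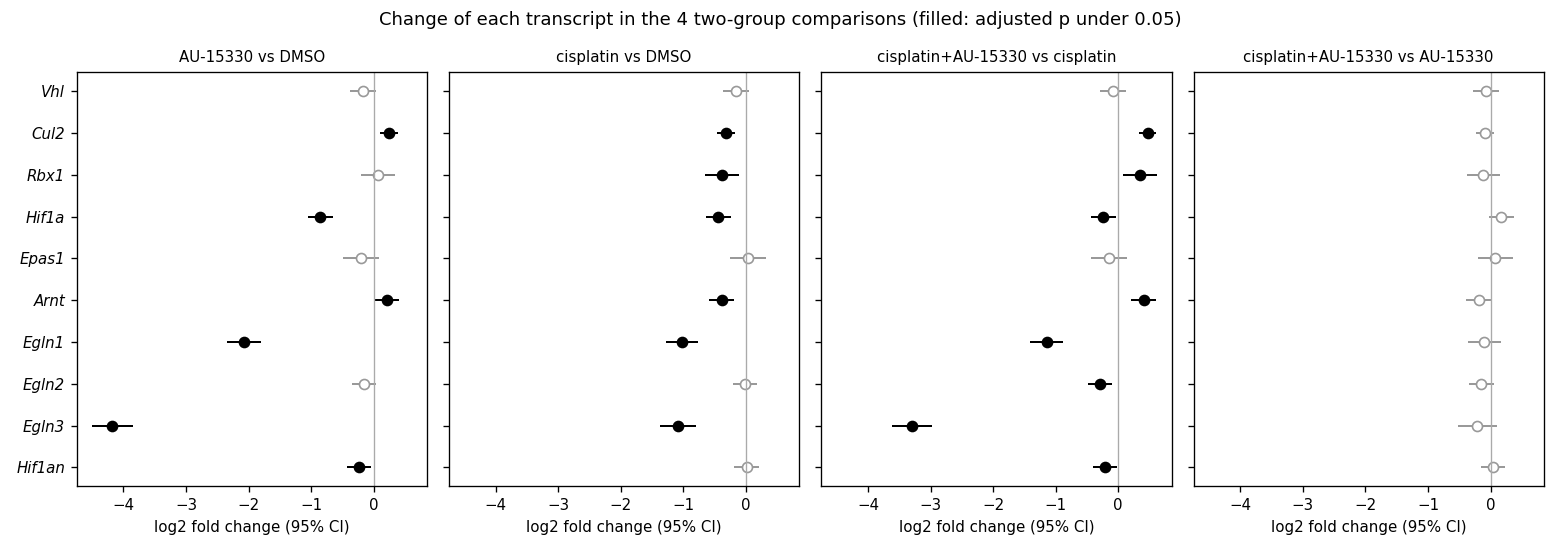
Log2 fold change (horizontal axis) of each of the 10 genes in the 4 comparisons of 2 groups, with 95% confidence intervals; filled points were called at an adjusted p under 0.05. Egln3 and Egln1 lay far to the left of 0 wherever AU-15330 or cisplatin was added to cells without AU-15330, Cul2 and Arnt lay to the right with AU-15330 and to the left with cisplatin, and no point was called when cisplatin was added to AU-15330 in this fit without a replicate block.

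The ligase genes moved little by comparison. Vhl (chr6:113623959-113631633, plus strand), the receptor that gives the ligase its name, held 30.4 to 50.7 CPM (median 36.5) in DMSO, 31.7 to 38.3 (median 34.6) in AU-15330, 31.7 to 38.5 (median 34.8) in cisplatin and 29.3 to 36.3 (median 32.97) in the combination. All 4 groups overlapped, and the highest value was DMSO replicate 1. The log2 difference from DMSO was -0.17 with AU-15330 (95% interval -0.36 to 0.03, adjusted p = 0.111) and -0.16 with cisplatin (-0.35 to 0.04, adjusted p = 0.167), and -0.08 between combination and cisplatin (-0.28 to 0.11, adjusted p = 0.433). Changes beyond about the ends of these intervals were thus not seen, but smaller ones cannot be told from 0. When the libraries numbered 2 were left out of every group, the AU-15330 difference was called, at -0.23 (adjusted p = 0.0421), whereas with total counts it was -0.04 (adjusted p = 0.744) and without DMSO replicate 1 -0.07 (adjusted p = 0.471).

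Cul2, the scaffold, moved in opposite directions with the drugs. It held 48.7 to 63.1 CPM (median 55.1) in DMSO, 62.5 to 69.7 (median 67.0) in AU-15330, 41.4 to 48.6 (median 45.0) in cisplatin and 59.1 to 67.9 (median 60.9) in the combination. Every cisplatin library lay below every library of the other groups, by the narrowest of margins against DMSO (48.6 against 48.7), and the lowest AU-15330 library fell just inside the top of the DMSO range. Cul2 rose with AU-15330 by a log2 fold change of 0.24 (SE 0.06, adjusted p = 0.000919), fell with cisplatin, at -0.32 (SE 0.06, adjusted p = 0.000111) and was higher in the combination than in cisplatin by 0.47 (SE 0.06, adjusted p = 1.94e-07). Its interaction, 0.23 (SE 0.09, adjusted p = 0.0453), passed narrowly and was not called in 10 of 13 alternatives, without the libraries numbered 2, 3, 4, 5 or 6 among them (0.15 to 0.27, adjusted p = 0.0546 to 0.228).

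Rbx1 (chr15:81466296-81476369, plus strand), the RING subunit, is shared with other cullin ligases. It held 62.5 to 110.9 CPM (median 72.2) in DMSO, 73.2 to 101 (median 81.7) in AU-15330, 49.8 to 79.3 (median 57.6) in cisplatin and 68.1 to 92.4 (median 75.8) in the combination. Replicate 1 was the highest library in each group and the groups overlapped throughout. With AU-15330 the log2 difference was 0.07 (95% interval -0.18 to 0.32, adjusted p = 0.614). Rbx1 fell with cisplatin, at -0.39 (SE 0.12, adjusted p = 0.0111), and was higher in the combination than in cisplatin by 0.34 (SE 0.12, adjusted p = 0.0167). The cisplatin call did not hold when few libraries were left out. Without DMSO replicate 1 the log2 difference was -0.25 (adjusted p = 0.0804), without the libraries numbered 3 it was -0.36 (adjusted p = 0.0601) and without those numbered 5 it was -0.31 (adjusted p = 0.0802). The call was also lost when only the DMSO and cisplatin groups were fitted (-0.39, adjusted p = 0.0522). The rise in the combination was likewise not called without the libraries numbered 3, 4 or 5 (0.31 to 0.32, adjusted p = 0.0555 to 0.0756).

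Among the HIF subunits, Hif1a fell with either drug. It held 388 to 583 CPM (median 482) in DMSO, 249 to 283 (median 271) in AU-15330, 336 to 402 (median 355) in cisplatin and 280 to 361 (median 290) in the combination. The AU-15330 and DMSO groups were far apart, whereas the cisplatin and DMSO groups overlapped at 388 to 402. The log2 fold change was -0.85 with AU-15330 (SE 0.09, adjusted p = 3.96e-09), -0.44 with cisplatin (SE 0.09, adjusted p = 0.00019) and -0.24 from cisplatin to the combination (SE 0.09, adjusted p = 0.0215). The last was not called without the libraries numbered 4 (-0.22, adjusted p = 0.064) or 5 (-0.22, adjusted p = 0.0561). The interaction was 0.61 (SE 0.13, adjusted p = 0.000549), a smaller fall with AU-15330 when cisplatin was present. Between the combination and AU-15330 alone the difference was 0.17 (95% interval -0.01 to 0.36, adjusted p = 0.127). It was not called with the replicate number as a block either, but was when only these groups were fitted (0.18, adjusted p = 0.0263). Exons of Hif1a (chr12:73901375-73947530, plus strand) share 330 bases with the antisense gene Gm15283 and 148 with Gm49321 on the same strand. The use of strand in the counting was not stated, so reads there cannot be assigned to either gene.

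Epas1 (chr17:86753700-86833410, plus strand), which encodes the other main alpha subunit, was not called in any comparison. It held 76.0 to 138 CPM (median 105) in DMSO, 73.6 to 114 (median 91.3) in AU-15330, 84.8 to 121 (median 114) in cisplatin and 82.3 to 114 (median 97.2) in the combination, with wide overlap. The log2 difference from DMSO was -0.20 with AU-15330 (95% interval -0.47 to 0.07, adjusted p = 0.177) and 0.03 with cisplatin (-0.24 to 0.30, adjusted p = 0.877). Without the libraries numbered 5, the AU-15330 difference was called, at -0.32 (adjusted p = 0.0419), whereas without those numbered 2 it was -0.05 (adjusted p = 0.746) and with total counts -0.07 (adjusted p = 0.645). Per kilobase of exon, the ratio of Hif1a to Epas1 was 4.46 ± 0.73 in DMSO, 2.89 ± 0.61 in AU-15330, 3.22 ± 0.44 in cisplatin and 3.03 ± 0.58 in the combination (SD, n = 6 each), so Hif1a was the more abundant in every group.

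Arnt (chr3:95434388-95497240, plus strand), the shared beta subunit, followed the pattern of Cul2. It held 101 to 142 CPM (median 127) in DMSO, 133 to 160 (median 143) in AU-15330, 75.1 to 107 (median 98.2) in cisplatin and 106 to 134 (median 130) in the combination. The ranges of neighbouring groups overlapped, with cisplatin lowest and AU-15330 highest. Arnt rose with AU-15330 by a log2 fold change of 0.21 (SE 0.09, adjusted p = 0.0399), fell with cisplatin, at -0.39 (SE 0.09, adjusted p = 0.000821), and was higher in the combination than in cisplatin by 0.41 (SE 0.09, adjusted p = 0.000276). The rise with AU-15330 alone was not called without DMSO replicate 1 (0.16, adjusted p = 0.0803) or without the libraries numbered 4 (0.19, adjusted p = 0.12) or 5 (0.15, adjusted p = 0.188). The interaction was 0.20 (95% interval -0.06 to 0.46, adjusted p = 0.234). Between the combination and AU-15330 alone the difference was -0.19 (95% interval -0.37 to -0.002, adjusted p = 0.0974). With the replicate number as a block it was called (-0.19, adjusted p = 0.0272).

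Hif1an (chr19:44562850-44576274, plus strand), the asparaginyl hydroxylase gene, held 75.4 to 109 CPM (median 87.3) in DMSO, 65.9 to 82.4 (median 77.5) in AU-15330, 74.1 to 105 (median 93.5) in cisplatin and 73.4 to 84.1 (median 76.9) in the combination. The 4 groups overlapped, with the AU-15330 groups in the lower part of the range. It was lower with AU-15330, at a log2 fold change of -0.24 (SE 0.09, adjusted p = 0.0166), and lower in the combination than in cisplatin, at -0.21 (SE 0.09, adjusted p = 0.0355). The first call was not made without the libraries numbered 4 (-0.23, adjusted p = 0.0543) or 5 (-0.22, adjusted p = 0.0515), nor the second without those numbered 4, 5 or 6 (-0.20 to -0.15, adjusted p = 0.0868 to 0.127). With total counts neither was called (-0.11, adjusted p = 0.264, and -0.14, adjusted p = 0.155). With cisplatin the difference was 0.01 (95% interval -0.17 to 0.19, adjusted p = 0.936).

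Counted over the comparisons, cisplatin lowered 6 of the 10 genes (Cul2, Rbx1, Hif1a, Arnt, Egln1 and Egln3) and raised none, where 51.7% of all tested genes were called, 26% higher and 25.7% lower. Libraries did not overlap for 3 of them, Cul2, Egln1 and Egln3, against 24% of all tested genes. From cisplatin to the combination, 8 of the 10 were called, 3 higher (Cul2, Rbx1 and Arnt) and 5 lower, against 68.1% of all tested genes, 35.4% higher and 32.7% lower. Here too Cul2, Egln1 and Egln3 were the 3 without overlap, against 50.2%. Adding cisplatin to AU-15330 gave 0 calls among the 10 with edgeR's quasi-likelihood test and 0 with DESeq2's Wald test, and 1 gene, Arnt, at an unadjusted p under 0.05. With the replicate number as a block, since same-numbered libraries of these groups deviated together, Arnt was called (-0.19, adjusted p = 0.0272) and 47.8% of all tested genes were. In this comparison 41.7% of all tested genes were called, 22.2% higher and 19.5% lower. When only these 2 groups were fitted, 3 of the 10 were called, Hif1a higher (0.18) and Arnt and Egln2 lower (-0.18 and -0.14). That fit called 54.5% of the 12035 genes it tested, so 3 of 10 lay below its background.

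**Figure D4:**
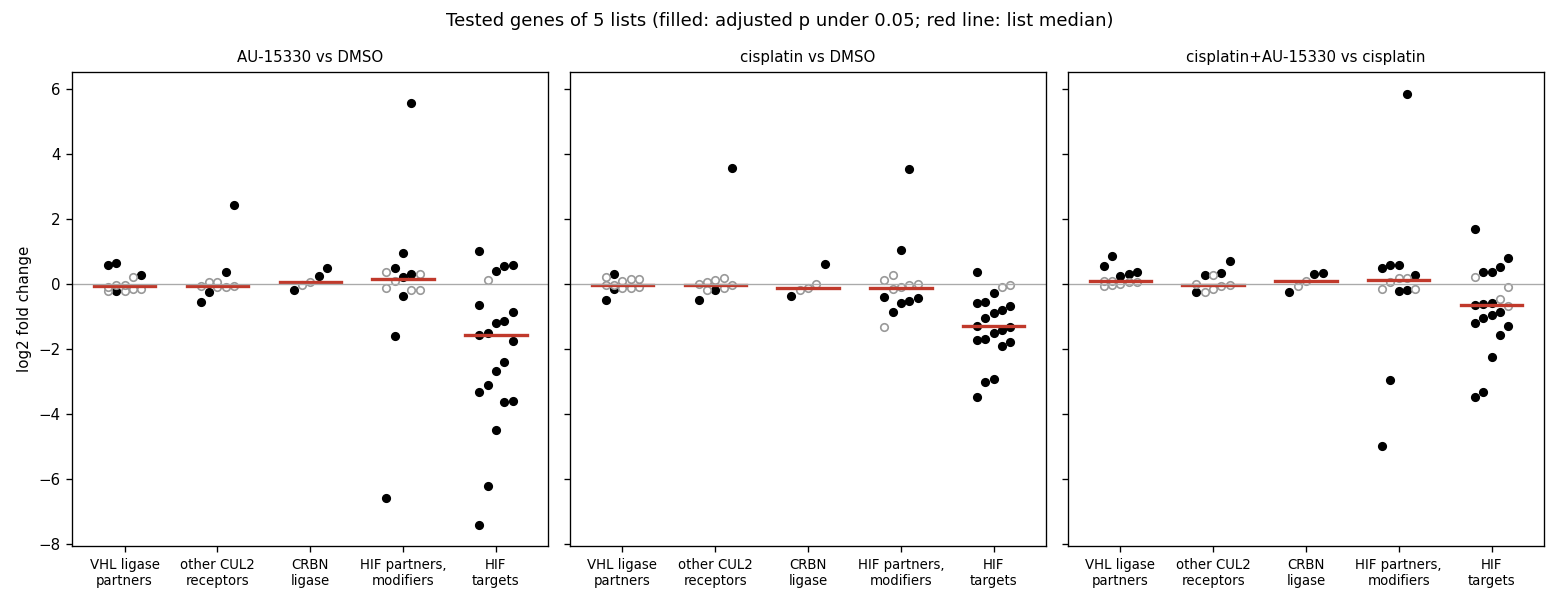
Log2 fold change (vertical axis) of each tested gene of 5 lists in 3 comparisons; filled points were called at an adjusted p under 0.05 and the red line is the list's median. The medians of the ligase lists lay near 0, although single genes did not, such as Cand1 (0.65) and Fem1b (-0.56) with AU-15330. The HIF target list had a median of -1.56 with AU-15330, -1.28 with cisplatin and -0.65 from cisplatin to the combination.

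The other parts of the machinery were taken from lists. Of 12 VHL ligase partners, which build, charge or regulate the complex, 3 rose and 1 fell with AU-15330, with a median log2 fold change of -0.06 (all tested genes, -0.003). This is 4 of 12 called, below the 73.4% of all tested genes. Those that rose were Cand1 (0.65), an exchange factor for cullin substrate receptors, Uba3 (0.57), the catalytic subunit of the NEDD8-activating enzyme, and Cops5 (0.27), the deneddylating subunit of the COP9 signalosome. Ube2d2a, a ubiquitin-conjugating enzyme, fell (-0.22), a call that was lost with total counts in place of TMM (-0.093, adjusted p = 0.179). Cand1 went from 158 to 209 CPM in DMSO to 273 to 289 in AU-15330, with no overlap. The elongin genes Elob (-0.22, adjusted p = 0.153) and Eloc (-0.23, adjusted p = 0.0596) were not called and are named here after their values were seen. Under the alternatives, 2 to 4 of the 12 partners were called higher and 0 to 5 lower with AU-15330.

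With cisplatin, 1 of the 12 partners rose, Cdc34 (0.29, adjusted p = 0.0435), a ubiquitin-conjugating enzyme, and 2 fell, Nae1 (-0.50), the regulatory subunit of the NEDD8-activating enzyme, and Ube2d2a (-0.16), against 51.7% of all tested genes called in either direction. The Cdc34 call was lost without the libraries numbered 1, 2, 3 or 4 (0.18 to 0.35, adjusted p = 0.0546 to 0.151). That of Ube2d2a was lost in 11 of 14 alternatives, among them total counts (-0.085, adjusted p = 0.266), no DMSO replicate 1 (-0.11, adjusted p = 0.191) and no libraries numbered 1, 2, 3, 4 or 5 (-0.18 to -0.13, adjusted p = 0.0587 to 0.145). From cisplatin to the combination, 5 of the 12 rose (Uba3, Cand1, Nae1, Nedd8 and Cops5) and none fell, where 35.4% of all tested genes were higher and 32.7% lower; these were named because of their small number. Nedd8 (0.31) was not called without the libraries numbered 3, 4, 5 or 6 (0.26 to 0.30, adjusted p = 0.0575 to 0.0964), nor Cops5 (0.26) without those numbered 3 or 6 (0.22 and 0.23, adjusted p = 0.0858 and 0.0535). The median log2 change was 0.09, beside 0.04 for all tested genes.

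Of 10 other receptors that CUL2 serves, 2 rose and 2 fell with AU-15330 (median -0.07), where 36.2% of all tested genes were higher and 37.2% lower. Zer1 rose (0.35), and Fem1b (-0.56) and Fem1a (-0.23) fell, the latter not called with total counts (-0.10, adjusted p = 0.212). Lrr1, a receptor that acts on the replication machinery, rose from a very low level, from 0.09 to 0.49 CPM (2 to 11 counts) in DMSO to 0.86 to 2.69 in AU-15330 (log2 fold change 2.42); it passed the filter on low counts through the drug groups, so its calls are fixed in part by that filter. With cisplatin 1 rose, Lrr1 again (2.18 to 6.00 CPM, 3.58), and 2 fell, Zyg11b (-0.49) and Fem1a (-0.19), with a median of -0.02 (all tested genes, 26% higher and 25.7% lower). This Fem1a call was lost with total counts (-0.12, adjusted p = 0.184) and without the libraries numbered 2, 3, 5 or 6 (-0.20 to -0.13, adjusted p = 0.0603 to 0.186). From cisplatin to the combination 3 rose, Lrr1 (0.70), Fem1b (0.34) and Zer1 (0.26), and 1 fell, Fem1c (-0.24). Of all tested genes 35.4% were higher and 32.7% lower. The calls of Lrr1, Zer1 and Fem1c were lost in several alternatives. Fem1b thus fell with AU-15330 alone but rose with it when cisplatin was present (interaction 0.91, adjusted p = 5.47e-06). For comparison, the cereblon (CRBN) ligase, which shares RBX1, had 2 genes higher, Cul4b (0.49) and Cul4a (0.25), and 1 lower, Ddb1 (-0.19), of 5 with AU-15330, again below the 73.4% of all tested genes. The Ddb1 call was lost with total counts (-0.059, adjusted p = 0.431), when only these groups were fitted (adjusted p = 0.0601) and without the libraries numbered 2 (-0.14, adjusted p = 0.119) or 3 (-0.14, adjusted p = 0.116). With cisplatin 1 of the 5 was called higher, Cul4b (0.63), and 1 lower, Rbx1, whose call was lost in the alternatives given above. Of all tested genes 51.7% were called.

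Of 15 HIF partners and modifiers, 14 passed the filter on low counts, all but P4htm. With AU-15330 5 rose and 3 fell (median 0.15), which is 8 of 14 called against 73.4% of all tested genes. Cited4, a coregulator that binds CBP and p300, fell from 76.1 to 141 CPM in DMSO to 0.89 to 1.44 (log2 fold change -6.59, adjusted p = 2.37e-20). Hif3a, the third alpha subunit gene, rose from 0.05 to 0.43 CPM (1 to 7 counts) to 5.36 to 8.93. It passed the filter on low counts through the AU-15330 groups where it was high, so its rise is given as levels with no test, although it is among the 5. Siah2, a ubiquitin ligase for prolyl hydroxylases, fell (-1.60), and Ep300, the coactivator p300, rose (0.95). The other calls were Siah1b (0.50), Hsp90ab1 (0.29) and Ogfod1 (0.21), which rose, and Rack1 (-0.38), which fell. The Ogfod1 call was lost without DMSO replicate 1 (0.15, adjusted p = 0.0821) and without the libraries numbered 3, 4 or 5 (0.18 to 0.21, adjusted p = 0.0689 to 0.126). In the combination Cited4 held 2.40 to 4.28 CPM and Hif3a 1.56 to 4.65, so both again stood apart from cisplatin, with 82.5 to 117 and 0 to 0.12.

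With cisplatin 2 of the 14 rose and 5 fell (median -0.12), against 51.7% of all tested genes called, 26% higher and 25.7% lower. Arnt2, a paralog of Arnt, went from 0 to 0.19 CPM (0 to 4 counts) to 0.77 to 1.119. It passed the filter through the cisplatin group alone, so this is given with no test, although it is 1 of the 2. Siah1b rose by 1.03. Siah2 (-0.87), Siah1a (-0.58), Cited2 (-0.53), Ogfod1 (-0.44) and Rack1 (-0.40) fell. In AU-15330 and in the combination Arnt2 held 0 to 0.24 CPM.

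Of 22 known HIF target genes, 21 were tested, all but Bnip3, and with AU-15330 16 fell and 4 rose, where 37.2% of all tested genes were lower and 36.2% higher. The 16 include Adm, which encodes adrenomedullin and passed the filter on low counts through the DMSO group alone, where it was high, so that its calls against DMSO are fixed in part by that filter. The median log2 fold change was -1.56. The lowest were P4ha2 (-7.41), a collagen prolyl hydroxylase, Ndrg1 (-6.20), a stress-response gene, Ero1l (-4.50), an oxidase of the endoplasmic reticulum, and Ankrd37 (-3.62), an ankyrin repeat gene. P4ha2 ran from 42.6 to 171 CPM in DMSO and from 0.31 to 0.84 in AU-15330, and Ndrg1 from 367 to 798 and from 5.86 to 11.1. The groups were thus separated although DMSO itself was widely spread. The 4 that rose, named because they went against the list, were Car9 (1.03), Kdm3a (0.57), Pfkfb4 (0.54) and Pfkfb3 (0.39). Bhlhe40 was not called (0.13).

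With cisplatin 18 of the 21 HIF targets fell and 1 rose (median -1.28), against 25.7% of all tested genes lower and 26% higher. Adm, again 1 of these, went from 0.58 to 1.64 CPM to between 0 and 0.32 (0 to 7 counts), and is given with no test. Ero1l fell by a log2 fold change of -3.01. Pfkfb3 rose (0.38, not called when only these groups were fitted, adjusted p = 0.055), and Kdm3a and Pfkfb4 were not called (-0.08 and -0.03). From cisplatin to the combination 12 fell and 5 rose (median -0.65), where 32.7% of all tested genes were lower and 35.4% higher. The interaction was called for 13 of the 21, all positive, against 17.9% of all tested genes with a positive call and 15.8% with a negative one. Adm is 1 of the 13, with 0 to 7 counts in the drug groups, and its call was lost in 6 alternatives. The median was 1.03 where that of all tested genes was 0.006. A positive value here means that the change with AU-15330 was less negative, or more positive, when cisplatin was present. Between the combination and AU-15330 alone, 4 of the 21 were higher and 4 lower (median -0.20), against 41.7% of all tested genes called. These counts were 7 and 9 when only the groups compared were fitted, 5 and 5 with the replicate block and 4 and 2 when a fold above 1.2 was required. In these fits, in that order, 54.5%, 47.8% and 19% of all tested genes were called. In the RefSeq windows, all 20 HIF targets with an entry held the hypoxia response core in at least 1 window, but the list consists of genes known for such elements.

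The genes whose log2 CPM over the 24 libraries tracked the most variable of the 10 most closely were also noted. For Egln3 they were Rps6ka1, Dhrs3 and Dnpep (Pearson r = 0.993, 0.992 and 0.991), for Egln1 Nrn1, Txndc5 and Gnb1 (0.991, 0.987 and 0.985) and for Hif1a Slc39a10, Aldh1l2 and Nrp2 (0.955, 0.947 and 0.944). These values describe the 24 libraries, which share their 4 treatment groups, and carry no test.

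Library totals ran from 17592588 to 25260009 counts, every library was most like its own group, and DMSO replicate 1 had the lowest mean correlation with its group (0.979). In all 24 libraries Trp53 RNA was detected (18.7 to 42.9 CPM), and with no wild-type sample this does not test the genotype; AU-15330 acts on SMARCA4 and SMARCA2 as proteins, so their RNA does not check the treatment. Of 7 ovarian surface and ID8 markers, all were called lower with AU-15330, where 37.2% of all tested genes were. Their summed levels were 3512 to 5308 CPM in DMSO, 1018 to 1150 in AU-15330, 4174 to 4851 in cisplatin and 1222 to 1403 in the combination. With cisplatin 5 of the 7 were called higher and none lower, where 26% of all tested genes were higher and 25.7% lower. They were Upk3b (log2 fold change 2.12), Krt8 (0.70), Krt18 (0.22), Wt1 (0.21) and Krt7. Krt7 met the filter on low counts in enough libraries only through the cisplatin group. Msln (0.14) and Krt19 (-0.35) were not called. The part of these 7 markers in the results was not tested. Of 6 leukocyte and 4 endothelial markers only Cd68 and Pecam1 were above 3 counts in every library of a group, and the leukocyte sum was 6.46 to 18.97 CPM in DMSO, 16.8 to 53.1 in AU-15330, 6.85 to 13.2 in cisplatin and 23.96 to 42.3 in the combination. The endothelial sum was 2.87 to 4.28 CPM in DMSO, 0.26 to 0.76 in AU-15330, 8.51 to 12.8 in cisplatin and 0.48 to 1.198 in the combination. Cd68 was higher with AU-15330 (log2 fold change 1.56, adjusted p = 3.16e-05) and in the combination than in cisplatin (1.86, adjusted p = 3.71e-06). Pecam1 was lower with AU-15330 (log2 fold change -2.95, adjusted p = 9.57e-13) and higher with cisplatin (1.49, adjusted p = 1.358e-08), and the part of these markers in the results was not tested. Of 5 erythroid markers, 4 were at 0 in every library.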

How the data were processed

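Single-end poly(A) RNA libraries from a directional kit were made by the authors from ID8 P53 KO cells, 24 in all, 6 per treatment. The submitters' processing notes name STAR 2.7.1a, DESeq2 1.36.0 and the mm10 build; the counting tool, annotation and use of strand are not given in the sources used here. The authors deposited raw read counts per gene symbol for 25229 genes, with 2 lanes per library, which were summed here; 0 of 48 columns were left unmatched. The study's methods give a higher cisplatin concentration for these cells than the labels, whose value is used. Totals were 17592588 to 25260009 counts, and a floor of 3 counts covers counting error only.

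The counts went into edgeR 4.0.16 (R 4.3.3), with the filterByExpr filter (12941 genes kept), TMM scaling and a fit of group means to all 24 libraries (20 residual degrees of freedom). Comparisons were made with its quasi-likelihood test and Benjamini-Hochberg adjustment over all tested genes with a threshold of 0.05. The replicate numbers come from the labels, which do not say what they mark; deviations from the group means correlated above 0.1 in all 6 same-numbered pairs of AU-15330 and the combination (0.10 to 0.48), the criterion for pairing, and in 2 to 5 of 6 pairs of other groups. The SE was the log2 fold change divided by the square root of F. Alternatives used DESeq2 1.42.0 (Wald test or size factors), total counts, all genes with at least 1 count, a replicate block, only the groups compared, a required fold above 1.2, and leaving out each replicate number; leaving out DMSO replicate 1 alone was added after the data were seen. Exon lengths and positions came from GENCODE vM21, and promoters from RefSeq (GRCm38.p6).

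The 10 genes and all lists were chosen with earlier results of these data known. The naming rule took all 10 genes; of each list, the 4 called genes with the largest absolute change for AU-15330 and the 2 largest for cisplatin; and the 3 genes most correlated with each of the 3 most variable of the 10.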

Additional observations from a re-analysis of the deposited data

Results flagged for a closer look

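In 3 of 40 groups of 6 values searched, where chance gives about 2, the lowest or highest library stood apart by Dixon's criterion (its gap to the next library, divided by the range of the 6). In the combination, replicate 1 held 92.4 CPM of Rbx1, where the other 5 libraries held 68.1 to 76.4 (a ratio of 0.660), and 106 CPM of Arnt, where the others held 126 to 134 (0.722). In cisplatin, replicate 3 held 402 CPM of Hif1a, where the others held 336 to 361 (0.6251).

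The response to AU-15330 differed with and without cisplatin for 4 genes by the interaction test. The difference in log2 fold change was 0.93 for Egln1, 0.88 for Egln3, 0.61 for Hif1a and 0.23 for Cul2. For Egln1, Egln3 and Hif1a the fall was smaller when cisplatin was present, and for Cul2 the rise was larger; the Cul2 difference (adjusted p = 0.0453) was not called in 10 of 13 alternatives.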

How the results depend on the processing

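The falls of Egln1 and Egln3 in all their called comparisons, of Hif1a with either drug against DMSO, and the rises of Cul2 and Arnt from cisplatin to the combination kept their direction and their call under every alternative run. Leaving out each replicate number in turn gave 4 to 7 called genes of the 10 for AU-15330, 5 to 6 for cisplatin, 5 to 8 from cisplatin to the combination, 0 to 1 from AU-15330 to the combination and 3 to 4 for the interaction. The shares of all tested genes called under these settings were 69.4% to 74.8%, 45% to 52.7%, 63.4% to 69.2%, 34.7% to 43.4% and 25.2% to 35.7%. When a fold change above 1.2 was required, 3, 3 and 4 genes were called in the first 3 comparisons, against 56.8%, 29.8% and 50% of all tested genes; this asks that the change be significantly beyond that fold. From AU-15330 to the combination, fitting only the groups compared gave 3 calls and the replicate block 1 (Arnt, -0.19, adjusted p = 0.0272); the cause was not tested. The replicate block also called Rbx1 for the interaction (0.27, adjusted p = 0.0362) and changed no other call of the 10. The labels do not say that a number marks a shared culture or batch. Of 36 same-numbered pairs, 23 had correlations of their deviations from the group means above 0.1 (-0.13 to 0.48), with a mean of 0.145 against -0.0269 for different numbers, and 10 of 24 libraries correlated best with their own number; all 6 pairs exceeded 0.1 between AU-15330 and the combination only. With total counts in place of TMM, the median of all tested genes moved to 0.13 for AU-15330 and to 0.10 from cisplatin to the combination, and Hif1an was no longer called (-0.11 and -0.14), nor was Hif1a in the second (-0.17). The split of called genes for cisplatin went from 3360 higher and 3329 lower to 3977 and 2529, and for the interaction from 2313 and 2048 to 1791 and 2506. Over all genes, requiring the fold took the calls from 6689 to 3859 for cisplatin, from 5394 to 2456 from AU-15330 to the combination and from 4361 to 2494 for the interaction.

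The values that changed sign were all uncalled and near 0. For cisplatin, Egln2 was 0.0619 with total counts and 0.0563 without DMSO replicate 1, and Hif1an was -0.0153 with all genes of at least 1 count and -0.0162 without DMSO replicate 1. Leaving out each replicate number gave -0.0591 to 0.162 for Epas1, -0.0895 to 0.0733 for Egln2 and -0.0162 to 0.0424 for Hif1an. From AU-15330 to the combination, Hif1an was -0.0202 to 0.0658. For the interaction, Hif1an was -0.00144 with DESeq2 size factors and -0.0316 with total counts, and Epas1 was -0.0121 with total counts. Leaving libraries out gave -0.0316 to 0.165 for Vhl, -0.122 to 0.151 for Epas1 and -0.0214 to 0.0522 for Hif1an.

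Among listed genes, HIF targets called lower numbered 16 to 17 with AU-15330, 17 to 19 with cisplatin, 9 to 13 from cisplatin to the combination and 2 to 9 from AU-15330 to the combination. VHL ligase partners numbered 2 to 4 higher and 0 to 5 lower with AU-15330. The background moved as well. The share of all tested genes called in either direction was 50.6% to 77% with AU-15330 and 29.8% to 56.8% with cisplatin. It was 45.8% to 71.8% from cisplatin to the combination and 19% to 54.5% from AU-15330 to the combination. For the interaction it was 19.3% to 41%. The lists other than the markers, leaving out the 10 genes, gave 153 calls over the 5 comparisons, of which 52 were lost under at least 1 alternative (32 without counting the required fold) and 0 values changed sign.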

Other observations

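Within DMSO, the libraries numbered 1 to 3 held 372 to 461 CPM of Egln1 and those numbered 4 to 6 held 255 to 293, and for Egln3 the values were 323 to 418 and 216 to 251. In AU-15330, Epas1 held 73.6 to 78.0 CPM in the first 3 numbers and 105 to 114 in the others, and its log2 difference from DMSO was -0.60 in the first and 0.20 in the others. In the combination Epas1 likewise held 82.3 to 91.2 and 103 to 114 CPM. The direction was not the same for every gene and group: Egln3 held 13.1 to 17.1 CPM in the first 3 numbers and 17.3 to 19.3 in the others in AU-15330, and 141 to 167 and 113 to 140 in cisplatin. This split was chosen after the values were seen, and nothing in the labels says that the numbers mark a batch. With AU-15330, every gene of the set but Epas1 differed from DMSO in the same direction in both sets of numbers, whether called or not. These sets are parts of the libraries already tested, so this is no separate support for the calls.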
